A study of Mus musculus with 16 samples.

Results

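Chemokines and chemokine receptors were described in the irradiated small intestine of mice with and without epithelial Hnf4a. Members were all probes of the deposited table whose symbol begins with Ccl, Cxcl, Ccr, Cxcr, Cx3cl, Cx3cr, Xcl or Xcr followed by a number. The rule found 66 of the 25697 probes, for 52 of 17914 gene symbols on the array: 35 ligands and 17 receptors. Hnf4a encodes a nuclear receptor transcription factor of intestinal epithelial cells. Small intestinal RNA of 16 mice was hybridised to Illumina bead arrays, with 1 array per mouse and 8 mice per genotype. Hnf4aKO mice carried VillinCreERT2 and floxed Hnf4a alleles (Hnf4afl/fl), and Hnf4aWT mice carried the floxed alleles without the Cre. Another label gives the Hnf4aWT mice as Hnf4a+/+, which was not settled here. The Villin promoter drives Cre in the intestinal epithelium, so other cells of the tissue keep the gene. All mice of both groups received 1 mg of tamoxifen by gavage on 5 days, were exposed 3 weeks later to a whole-body gamma dose of 14 Gy and were killed after a further 96 h. No unirradiated mice were analysed here, so every difference below is between genotypes after irradiation, and Cre status cannot be told apart from genotype. The labels used here give neither age nor sex.

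Chemokines are small secreted proteins that guide leukocytes along concentration gradients by binding G protein-coupled receptors on the migrating cell. Inflammatory chemokines are induced in macrophages, epithelium and stroma during infection or injury, and a subset is driven by interferon. Homeostatic chemokines are made constitutively, and in the small intestine Ccl25 and Ccl28 are the epithelial ligands that draw lymphocytes and antibody-secreting cells to the mucosa.

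Of the 66 member probes, 40 (60.6%) were detected on at least 6 of the 16 arrays, the filter used, against 52.4% of all probes. A probe counts as detected on an array when its detection p-value, set against the negative control beads, is under 0.05. The 40 probes gave 31 genes to test, by the brightest probe of each gene, and 21 symbols were not tested. Levels are log2 normalised intensities and differences are knockout minus wildtype on that scale, tested with limma and adjusted by Benjamini-Hochberg over all 10143 genes. The percentage of probes detected ranged from 46.9% to 53.1% per array, and correlations between arrays from 0.906 to 0.988. Hnf4a itself had a log2 level of 12.24 ± 0.16 (SD, n = 8) in wildtype and 10.49 ± 0.19 (SD, n = 8) in knockout intestine, a fall to 29.8% of wildtype (adjusted p = 2.06e-09). The groups did not overlap, with the highest knockout array at 10.71 and the lowest wildtype array at 11.91.

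The knockout intestine had higher levels of most detected chemokine ligands after irradiation. Of the 31 tested members 21 rose, 1 fell and 9 did not pass the threshold of 0.05. Across all genes tested, 13.5% were called higher and 17.2% lower, or 30.7% in either direction. Scaling the arrays to a common median, in place of quantile normalisation, turned the genome-wide split from 1374 higher and 1741 lower to 872 higher and 1824 lower, and lowered the median of all genes to -0.11. The members' median difference was 0.96, beside -0.02 for all genes tested, and their differences ran from -2.08 to 3.04. In 9 members every knockout array lay above every wildtype array, and in 1 every knockout array lay below. Over all genes tested the corresponding shares were 2.54% and 4.36%, or 6.9% in either direction. Of the 27 ligands tested, 20 rose. Members that reached the test only through the group in which they were high had to differ: Ccl2 and Ccl1 were detected on no wildtype array and Ccl28 on no knockout array. Their p-values are therefore given only beside their bounds, and belong to the fitted differences, not to the bounds. With no detection filter all 3 kept their direction and call. Xcl1, detected on 3 wildtype and 8 knockout arrays, also needed its knockout arrays to reach the filter, and no bound was set for it. Xcl1 too kept its direction and call with no detection filter.

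**Figure D1:**
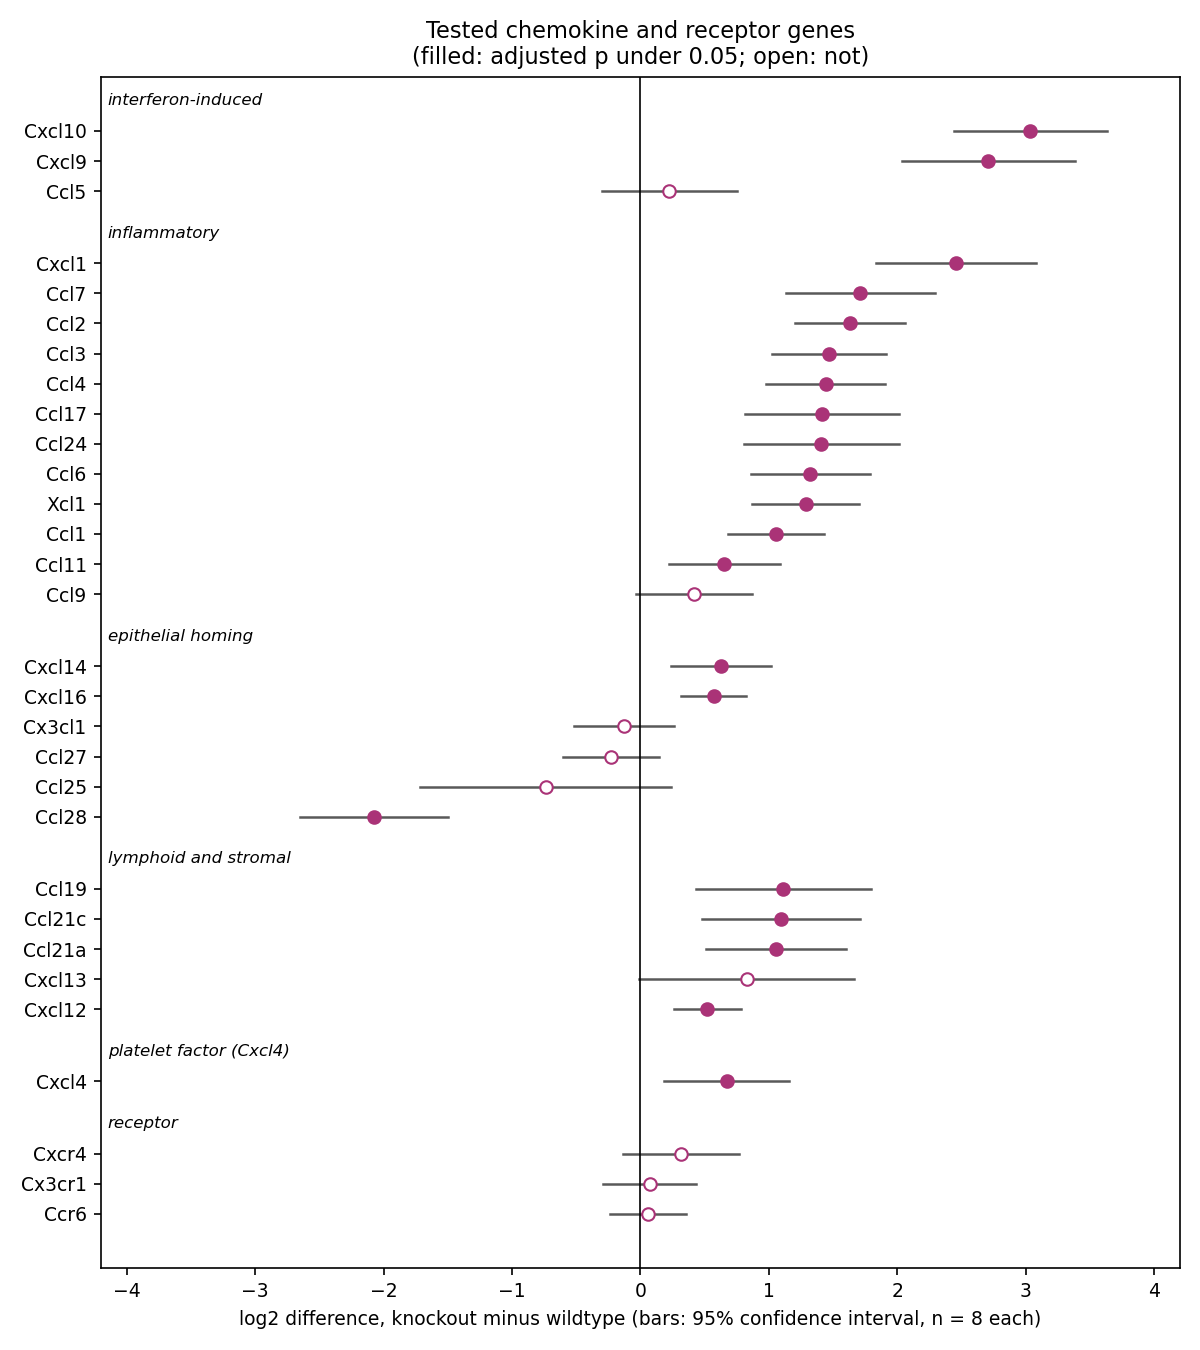
Log2 difference, knockout minus wildtype (x axis), of 30 tested chemokine and receptor genes, ordered by role, with bars for the 95% confidence interval and 8 mice per group. Filled points have an adjusted p under 0.05; Cxcl10 lies furthest to the right at 3.04 and Ccl28 furthest to the left at -2.08.

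In whole tissue, a larger number of cells of a type and more RNA per cell cannot be told apart. The macrophage markers, which mark a main source of inflammatory chemokines, were higher in 10 of 13 tested genes. Their mean log2 level was 8.99 ± 0.23 (SD, n = 8) in wildtype and 9.78 ± 0.41 (SD, n = 8) in knockout intestine. Their summed normalised intensity ran from 11127 to 17733 in wildtype and from 17371 to 51432 in knockout mice, and their mean was highest, at 10.55, in knockout mouse 1. All 3 tested dendritic cell markers, of 7 on the array, were higher too, with a median difference of 0.64. Flt3 and Cd209a were not detected, and the other untested markers missed the filter. Itgax (detected on 1 wildtype and 8 knockout arrays) and Batf3 (5 and 8) needed their knockout arrays to reach the filter of 6. So did the macrophage markers Itgam (0 and 6) and Fcgr1 (3 and 8). The markers of T and NK cells had 0 of 8 genes higher and 1 lower, and those of neutrophils 0 of 3 in either direction. The part of macrophages and dendritic cells in the chemokine differences was not tested.

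The interferon-induced ligands Cxcl10 and Cxcl9 showed the largest increases among the members tested. Both encode ligands of Cxcr3, the receptor by which activated T cells and NK cells follow interferon-gamma signals. Cxcl10 had log2 levels with a lowest, median and highest wildtype array of 5.56, 6.36 and 7.36, and of 8.66, 9.58 and 10.51 in knockout intestine. The means were 6.44 ± 0.67 and 9.48 ± 0.56 (SD, n = 8 each), which differ by 3.04 (SE 0.28) or 8.21-fold (adjusted p = 1.12e-06). All 8 knockout arrays lay above all 8 wildtype arrays, and the probe was detected on 6 wildtype and 8 knockout arrays. Cxcl9 ran from 9.08 through a median of 9.90 to 11.43 in wildtype and from 12.38 through 12.77 to 13.74 in knockout arrays. Its difference was 2.71 (SE 0.32), or 6.54-fold (adjusted p = 1.54e-05), again without overlap of the groups. Cxcl9 differed by 2.70 on slide 1 and by 2.72 on slide 2, and Cxcl10 by 2.83 and 3.24; each slide held 4 arrays of each genotype.

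Ccl5, a chemokine made largely by T and NK cells, did not pass the test. Its wildtype arrays ran from 7.93 to 9.69 with a median of 9.16, and its knockout arrays from 8.54 to 9.76 with a median of 9.32. The difference was 0.23 (SE 0.25, adjusted p = 0.531), with a 95% interval from -0.30 to 0.75, and the groups overlapped. The probe of Cxcl11, the remaining ligand of this group, was detected on no array. T and NK cell markers, the list that holds a main source of Ccl5, had a mean log2 level of 7.22 ± 0.30 in wildtype and 7.07 ± 0.25 in knockout intestine (SD, n = 8 each), and Cd8a, Gzmb and Ncr1 were not detected.

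The 250 bases before the start of Cxcl9 and Cxcl10 (RefSeq, GRCm38.p6, both on the minus strand of chromosome 5, at chr5:92328080-92328329 and chr5:92348890-92349139) are shown because these neighbouring genes rose most. Capitals mark matches to 4 motifs searched on both strands. These were GAAANNGAA for the core of the interferon-stimulated response element and GGANNTTCC for 1 spelling of an NF-kappaB site. The others were TATAAA for the letters of the core promoter box, at any position, and CAAAGTCCA for 1 spelling of an HNF4 site.
Cxcl9: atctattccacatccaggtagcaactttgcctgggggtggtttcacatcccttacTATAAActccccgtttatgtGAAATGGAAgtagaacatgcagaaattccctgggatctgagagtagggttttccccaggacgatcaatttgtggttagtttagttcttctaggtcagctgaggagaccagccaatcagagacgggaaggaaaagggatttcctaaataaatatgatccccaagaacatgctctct
Cxcl10: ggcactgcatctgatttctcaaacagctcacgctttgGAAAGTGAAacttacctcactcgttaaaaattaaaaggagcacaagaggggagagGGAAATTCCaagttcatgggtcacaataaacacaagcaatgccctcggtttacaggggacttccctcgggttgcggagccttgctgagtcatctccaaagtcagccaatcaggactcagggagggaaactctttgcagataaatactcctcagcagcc
In Cxcl10 the capitals are GAAAGTGAA and GGAAATTCC, which begin 213 and 158 bases before the start. In Cxcl9 they are TATAAA at 195 bases and GAAATGGAA at 175 bases before the start. The search took TATAAA at any position, so this match is not shown to be the core promoter box of Cxcl9. Of 37 members with a promoter sequence, 7 held GAAANNGAA (Ccl1, Ccl19, Ccl3, Ccr2, Cxcl10, Cxcl14 and Cxcl9), beside 7.13% of 32851 promoters of the same length. GGANNTTCC lay in 6 of them (Ccl1, Ccr3, Cxcl1, Cxcl10, Cxcl2 and Cxcl3), beside 3.59%. TATAAA lay in 10 of the 37, beside 12.4% of promoters, and CAAAGTCCA in 1, Ccr6, beside 0.384%. A match describes letters only, and the letters of GAAANNGAA and GGANNTTCC were shortened after a first search had been seen. Other spellings of these sites were not searched, so letters without capitals, such as ggggacttccc in Cxcl10, are not shown to lack a site. A member counts once if any of its promoters matched, while the percentages are of single promoters, so they are unlike measures. Whether members hold a motif more often than other promoters was not tested.

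Among the inflammatory ligands, 11 of 12 tested rose and none fell, with a median difference of 1.41, and 7 had no overlap between groups. Of these 7, Ccl2, Ccl1 and Xcl1 reached the detection filter only with their knockout arrays, so the filter favoured their separation. Cxcl1, which attracts neutrophils through Cxcr2, rose most. Its wildtype arrays had log2 levels from 5.95 to 8.10 with a median of 7.47, and its knockout arrays from 9.23 to 11.01 with a median of 9.86. The difference was 2.46 (SE 0.29), or 5.49-fold (adjusted p = 1.75e-05), and no wildtype array reached the lowest knockout array. It was 2.66 on slide 1 and 2.25 on slide 2. The neutrophil markers had a summed normalised intensity from 294 to 960 in wildtype and from 418 to 1055 in knockout intestine, and Mpo, Camp and Ngp were not detected. The probes for Cxcr2 carry the older symbol Il8rb, which the rule does not take, and were detected on no array.

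The promoter of Cxcl1 (RefSeq, GRCm38.p6, chr5:90890995-90891244, plus strand) is shown for comparison with Cxcl10, since both hold a match to GGANNTTCC.
Cxcl1: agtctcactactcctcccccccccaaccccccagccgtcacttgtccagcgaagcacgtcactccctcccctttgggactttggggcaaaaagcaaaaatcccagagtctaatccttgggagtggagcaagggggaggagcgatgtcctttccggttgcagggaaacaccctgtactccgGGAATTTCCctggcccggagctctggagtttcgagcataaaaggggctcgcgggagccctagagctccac
The capitals are GGAATTTCC, which begins 70 bases before the start and matches the motif on both strands at that place, as GGAAATTCC in Cxcl10 does.

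**Figure D2:**
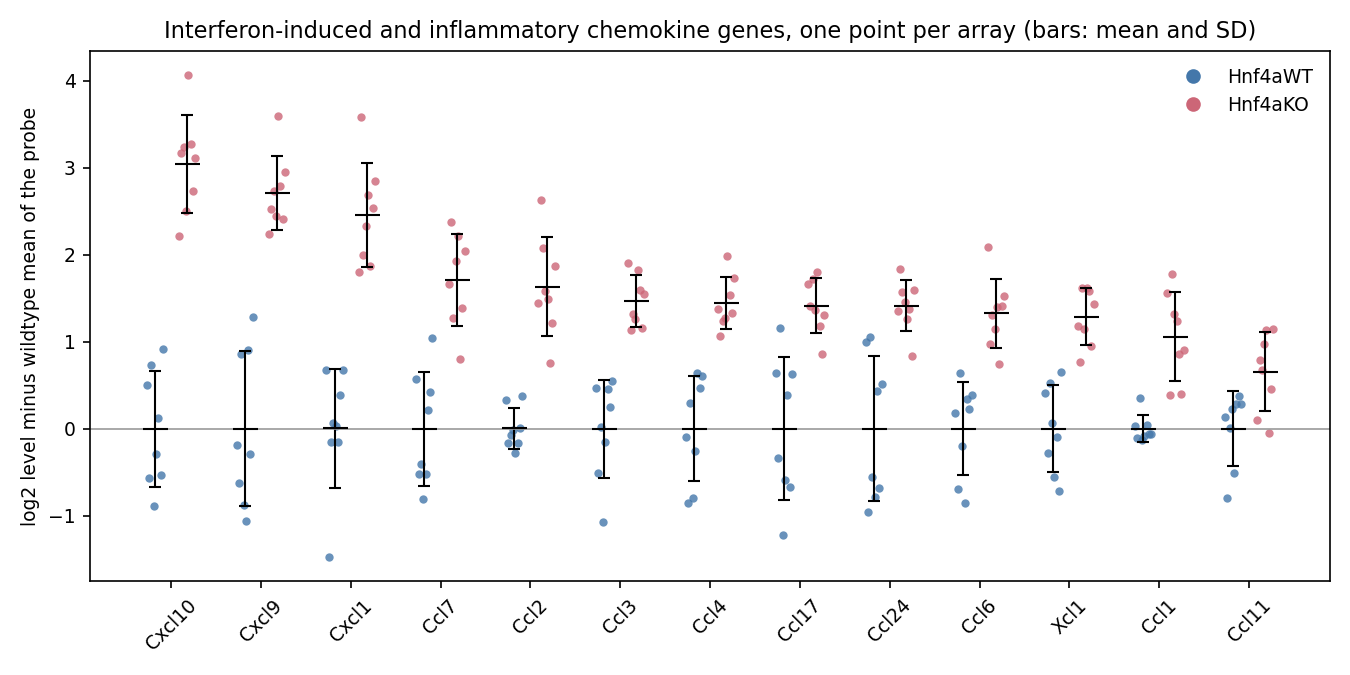
Log2 level minus the wildtype mean of the same probe (y axis) for 13 interferon-induced and inflammatory genes called higher, with 1 point per array, 8 per genotype, and bars for the mean and SD. Cxcl10, Cxcl9 and Cxcl1 stand apart by more than 2 log2 units on average, while the groups of Ccl7, Ccl17, Ccl24 and Ccl11 overlap.

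Ccl2 and Ccl7 are ligands of Ccr2, which brings monocytes from the blood into tissue. Ccl2 was detected on 0 wildtype and all 8 knockout arrays, with knockout log2 levels from 6.17 to 8.05 and a median of 6.96. Because the wildtype level is not well above background, the change is a bound. Ccl2 was at least 2.17-fold higher in knockout intestine (adjusted p = 2.47e-05 for the fitted difference). The measured wildtype values lay between 5.14 and 5.80. Ccl7 had a mean of 6.74 ± 0.66 in wildtype and 8.46 ± 0.53 in knockout intestine (SD, n = 8 each), a 3.28-fold increase (adjusted p = 0.000236). For Ccl7, 7 of 8 knockout arrays exceeded the highest wildtype array, at 7.79.

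Ccl3 and Ccl4, the macrophage inflammatory proteins, rose to a like extent. Ccl3 ran from 5.45 to 7.08 in wildtype, with a median of 6.66, and from 7.66 to 8.43 in knockout arrays, with a median of 7.96. The difference was 1.47 (SE 0.21), or 2.77-fold (adjusted p = 8.82e-05). Ccl4 ran from 7.58 to 9.08 and from 9.50 to 10.42, a difference of 1.44 (SE 0.22) or 2.72-fold (adjusted p = 0.000158). Neither gene had overlapping groups. A dimmer probe of Ccl4 gave a difference of 0.72 (adjusted p = 0.00468).

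Ccl6, a rodent chemokine of macrophages and other myeloid cells, rose by 1.32 (SE 0.22, adjusted p = 0.00032), from a mean of 9.08 ± 0.54 to 10.41 ± 0.40 (SD, n = 8 each), without overlap. Ccl9, its close relative, had a difference of 0.42 (SE 0.21) and an adjusted p of 0.148. Ccl17, a ligand of Ccr4 that dendritic cells secrete, rose by 1.41 (SE 0.28, adjusted p = 0.00136), and 7 knockout arrays lay above the highest wildtype array. Ccl24 and Ccl11 are eotaxins, which attract eosinophils through Ccr3. Ccl24 rose by 1.41 (SE 0.29, adjusted p = 0.00147) and Ccl11 by 0.65 (SE 0.21, adjusted p = 0.0231). The second probe of Ccl11 gave a difference of 0.39 (adjusted p = 0.228), and the call on Ccl11 was lost under 75th percentile scaling and median scaling. None of the 2 tested eosinophil and mast cell markers passed the test, and Epx was not detected.

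Xcl1 and Ccl1 are products of activated lymphocytes: Xcl1 draws cross-presenting dendritic cells through Xcr1, and Ccl1 is the ligand of Ccr8. Xcl1 was detected on 3 wildtype and 8 knockout arrays, so it needed its knockout arrays to reach the filter of 6. It rose from 5.86 ± 0.50 to 7.15 ± 0.32 (SD, n = 8 each), or 2.44-fold (adjusted p = 0.000169). Most wildtype arrays were below detection, so this fold change is uncertain. Ccl1 was detected on 0 wildtype and 6 knockout arrays, so it too needed its knockout arrays to reach the filter. It was at least 1.11-fold higher in knockout intestine (adjusted p = 0.000367 for the fitted difference). Neither gene had overlapping groups. For Ccl1 the separation lies partly within background: knockout arrays at 5.41 and 5.43 and the highest wildtype array, at 5.38, did not detect the probe. Of the 5 untested inflammatory ligands, Ccl22, Ccl26, Cxcl3 and Cxcl15 were detected on no array and Cxcl2 on 3, of which 1 was wildtype.

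The epithelial homing ligands did not move as a block: 2 of 6 tested rose, 1 fell, and their median difference was -0.18. Ccl28, which the mucosal epithelium makes and which recruits IgA-secreting plasma cells through Ccr10, fell. Its wildtype log2 levels ran from 5.91 to 8.50 with a median of 7.50, and all 8 arrays detected it. In knockout intestine no array detected it and the values lay between 5.11 and 5.57, with a median of 5.22. Every knockout array lay below every wildtype array. With the knockout level only a bound, Ccl28 was at least 2.73-fold lower (adjusted p = 4.05e-05 for the fitted difference). The fitted difference was -1.54 on slide 1 and -2.61 on slide 2.

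The promoter of Ccl28 (RefSeq, GRCm38.p6, chr13:119623569-119623818, plus strand) is shown as that of the member that fell. None of the 4 motifs has a match in it, so it has no capitals.
Ccl28: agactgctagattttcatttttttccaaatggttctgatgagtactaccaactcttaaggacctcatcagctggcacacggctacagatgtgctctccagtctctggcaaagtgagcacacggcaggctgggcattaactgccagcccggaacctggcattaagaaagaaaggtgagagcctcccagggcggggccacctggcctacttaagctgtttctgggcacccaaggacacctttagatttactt

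Ccl25, the ligand by which the small intestine draws Ccr9-bearing T cells and plasma cells, had 2 probes that gave different answers. The probe used in the gene test, brighter over all arrays by 9.82 against 9.76, had log2 levels from 9.03 to 11.57 with a median of 10.10 in wildtype, and from 8.00 to 10.80 with a median of 9.49 in knockout intestine. Its difference was -0.74 (SE 0.46, adjusted p = 0.242), with overlapping groups. The second probe ran from 10.49 through a median of 11.10 to 12.05 in wildtype and from 6.77 through 8.58 to 9.88 in knockout arrays. It was 6.65-fold lower in knockout intestine (difference -2.73, SE 0.39, adjusted p = 8.94e-05 in a fit of all 13460 kept probes), and every knockout array lay below every wildtype array. The second probe differed by -2.29 on slide 1 and by -3.18 on slide 2, and the first by -0.18 and -1.30. In that probe-level fit, 29.4% of probes were called. The mean of both probes gave a difference of -1.74 (adjusted p = 0.00249). Which probe follows the Ccl25 transcript was not tested.

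**Figure D3:**
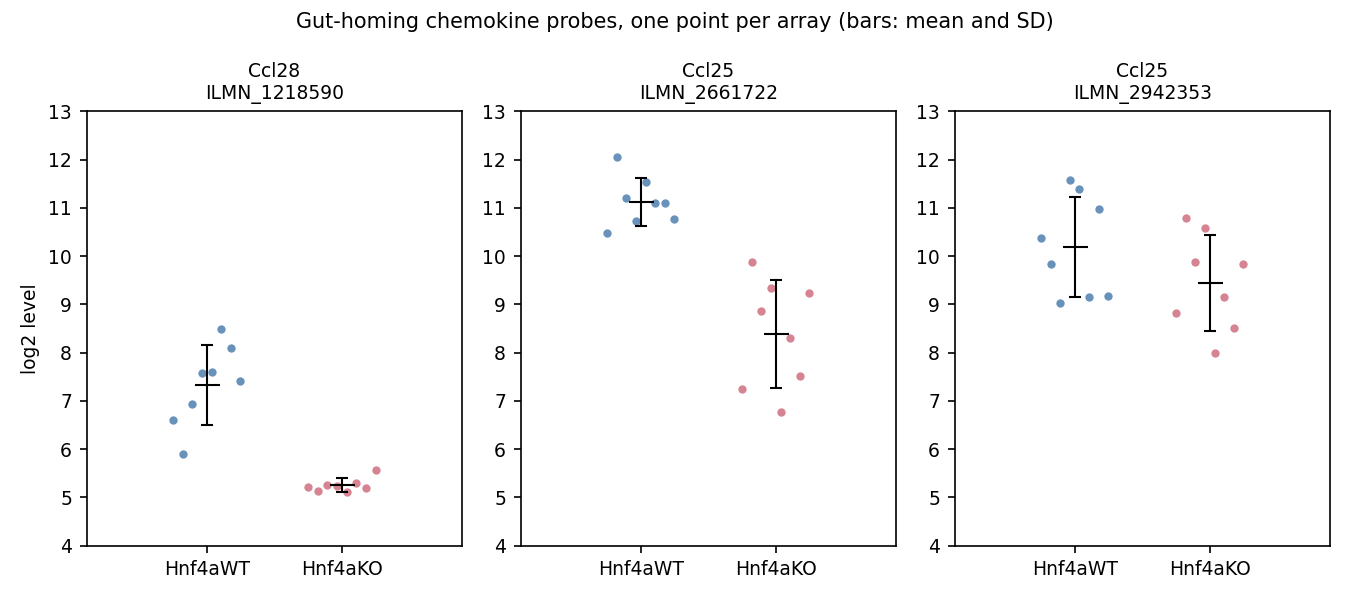
Log2 level (y axis) of the Ccl28 probe and both Ccl25 probes in Hnf4aWT and Hnf4aKO intestine, with 1 point per array, 8 per genotype, and bars for the mean and SD. Groups are separate for Ccl28 and for 1 Ccl25 probe and overlap for the other.

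Cxcl16 and Cxcl14 rose by less. Cxcl16, a membrane-bound ligand of Cxcr6, went from 11.02 ± 0.29 to 11.59 ± 0.18 (SD, n = 8 each), which is an increase of 0.57 (SE 0.12, adjusted p = 0.00194), and 7 knockout arrays exceeded the highest wildtype array. Cxcl14, an epithelial and stromal chemokine, went from 9.15 ± 0.41 to 9.78 ± 0.37 (SD, n = 8 each), which is an increase of 0.63 (SE 0.18, adjusted p = 0.0161). Its second probe gave 0.95 (adjusted p = 0.0049). Under median scaling Cxcl16 had a difference of 0.38 (adjusted p = 0.0828). The fractalkine gene Cx3cl1, ligand of Cx3cr1, had a difference of -0.13 (SE 0.18, adjusted p = 0.63) and Ccl27, now Ccl27a, the skin-homing ligand of Ccr10, one of -0.23 (SE 0.18, adjusted p = 0.348). Ccl20 and Cxcl17 were detected on no array. Pan-epithelial markers had a mean log2 level of 12.49 ± 0.16 in wildtype and 12.50 ± 0.17 in knockout intestine (SD, n = 8 each), with 1 of 7 tested genes higher. None of the 7 tested enterocyte markers passed the test, and Fabp2 was not detected.

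Lymphoid and stromal chemokines organise lymph nodes, follicles and lymphatic vessels, and 4 of 5 tested rose. Ccl19 and Ccl21a lead dendritic cells and naive T cells through Ccr7. Ccl19 ran from 5.94 to 6.96 in wildtype, with a median of 6.73, and from 6.61 to 9.51 in knockout arrays, with a median of 7.66. Its difference was 1.11 (SE 0.32, adjusted p = 0.0155). Ccl21a rose by 1.05 (SE 0.26, adjusted p = 0.00548) and Ccl21c by 1.10 (SE 0.29, adjusted p = 0.00903). These Ccl21 genes are near-identical copies, so their probes cannot be counted as separate genes with confidence. Cxcl12, the ligand of Cxcr4 that stromal cells make, rose by 0.52 (SE 0.12, adjusted p = 0.00422), and 2 further probes of it gave 0.37 and 0.55 (adjusted p = 0.111 and 0.125). Cxcl12 was not called under median scaling (difference 0.38, adjusted p = 0.0731). Cxcl13, which draws B cells to follicles through Cxcr5, ran from 8.27 to 9.20 in wildtype and from 8.02 to 11.37 in knockout arrays, and its difference of 0.83 (SE 0.40) had an adjusted p of 0.125.

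The values of these ligands differed more between genotypes among the arrays of slide 1. Ccl19 differed by 2.02 on slide 1 and 0.20 on slide 2, Ccl21a by 1.61 and 0.50, Cxcl12 by 0.67 and 0.37, and Cxcl13 by 1.80 and -0.15. A test of the difference between slides over all genes called 0 of 10143 genes in limma, with 314 at an unadjusted p under 0.05 and a lowest adjusted p of 0.993. The unadjusted p was 0.00198 for Ccl19, 0.00608 for Cxcl13, 0.0216 for Ccl21c, 0.0306 for Ccl21a and 0.245 for Cxcl12. Knockout mouse 1, on slide 1, had the highest level of Ccl19 (9.51), Ccl21a (12.62) and Cxcl13 (11.37), and also the highest mean of adipocyte markers, 12.08, beside 8.21 ± 1.35 (SD, n = 8) over the wildtype arrays and 6.36 in knockout mouse 6. Without knockout mouse 1 the differences were 0.85 for Ccl19 (adjusted p = 0.0131), 0.86 for Ccl21a (adjusted p = 0.00496) and 0.56 for Cxcl13 (adjusted p = 0.226). Without knockout mouse 6, Cxcl13 passed the test (difference 1.04, adjusted p = 0.0415). Endothelial markers, which include those of vessels that can make Ccl21, were higher in 6 of 10 tested genes. Their mean log2 level was 7.92 ± 0.17 in wildtype and 8.46 ± 0.24 in knockout intestine (SD, n = 8 each). Among the 6, Cdh5 was detected on 2 wildtype and 7 knockout arrays. Of the fibroblast markers 5 of 8 were higher, with a median difference of 0.46. Of the B and plasma cell markers 0 of 3 passed, and Ms4a1, Pax5 and Blk were not detected. The part of these cell types in the differences was not tested.

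**Figure D4:**
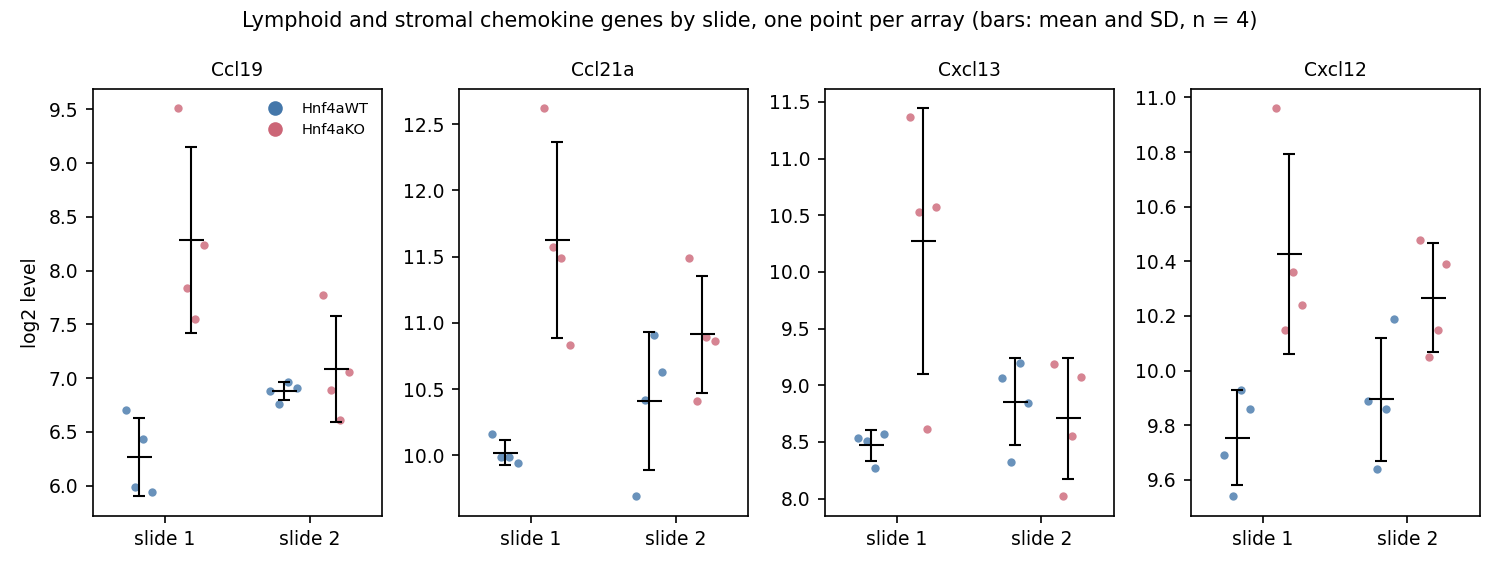
Log2 level (y axis) of Ccl19, Ccl21a, Cxcl13 and Cxcl12 by slide, with 1 point per array and bars for the mean and SD of 4 arrays per genotype and slide. On slide 1 the knockout means stand above the wildtype means for all 4 genes, while on slide 2 those of Cxcl13 do not.

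Cxcl4, now named Pf4, encodes platelet factor of megakaryocytes and platelets. It rose from 8.55 ± 0.56 to 9.22 ± 0.44 (SD, n = 8 each), which is an increase of 0.67 (SE 0.23, adjusted p = 0.0374). The groups overlapped, with 2 knockout arrays above the highest wildtype array. The call was lost in 10 of 31 alternative settings, among them median scaling (adjusted p = 0.0565), and also without wildtype mouse 2, 5 or 7 or knockout mouse 1, 7 or 8.

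Receptors were mostly below detection. Of 17 receptor symbols 4 were tested, 2 were detected on 1 array each (Cxcr5 and Cxcr6), and 11 were detected on no array (Ccr1, Ccr2, Ccr3, Ccr4, Ccr7, Ccr8, Ccr9, Ccr10, Cxcr3, Cxcr7, now Ackr3, and Xcr1). Of 35 ligand symbols, 27 were tested and 7 were detected on no array. The receptor of Cxcl9 and Cxcl10, of Ccl2 and Ccl7, and of Ccl19 and Ccl21a gave no level with which its ligands could be set, and a probe below detection does not show that the receptor is absent.

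**Figure D5:**
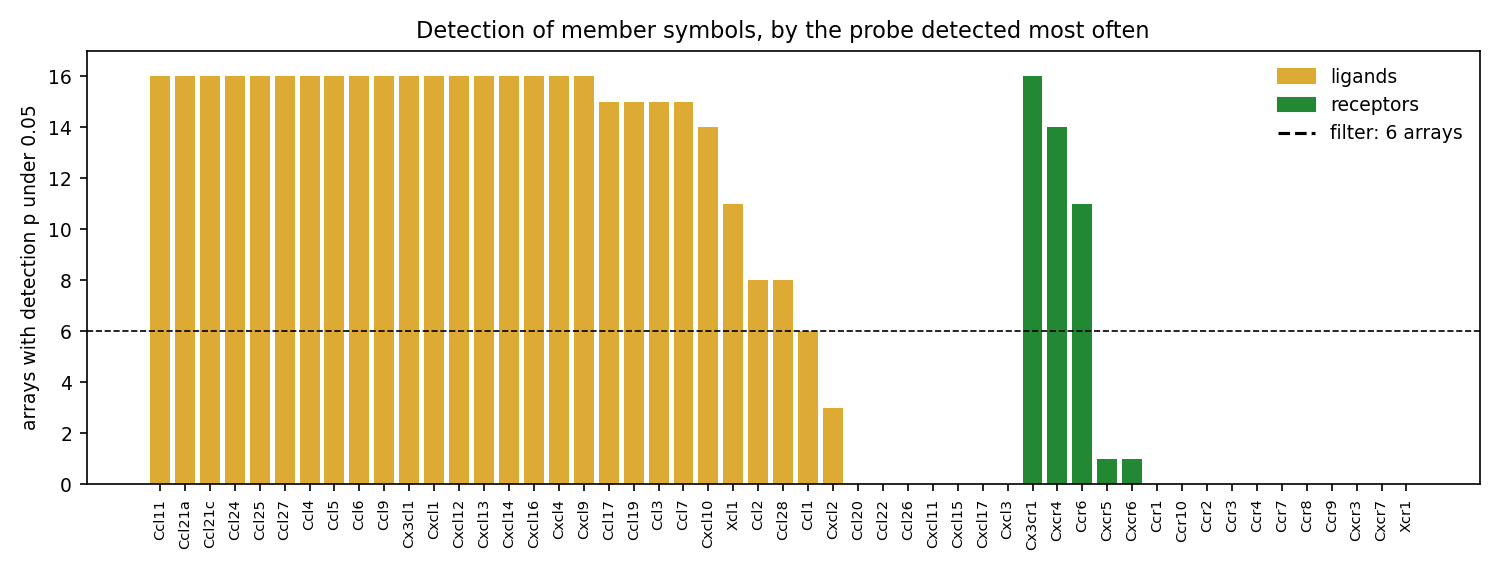
Number of arrays, of 16, on which each of 51 symbols was detected at a p under 0.05 by its most often detected probe (y axis), with ligands and receptors in different colours and the filter of 6 arrays as a dashed line. Among the receptors drawn, Cx3cr1, Cxcr4 and Ccr6 reach the line.

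Cxcr4 had a difference of 0.31 (SE 0.21, adjusted p = 0.284), Cx3cr1, a marker of resident macrophages, of 0.07 (SE 0.17, adjusted p = 0.786), and Ccr6, the receptor of Ccl20, of 0.06 (SE 0.14, adjusted p = 0.797). For these 3 the groups overlapped. Ccr6 differed by 0.40 on slide 1 and by -0.29 on slide 2, so its small difference averages values of opposite sign. Its probe was detected on 4 wildtype and 7 knockout arrays, and on no wildtype array of slide 1. The value of slide 1 is thus set against wildtype levels below detection, from 5.60 to 5.66. In the test between slides its unadjusted p was 0.00049 and its adjusted p 0.993. The second probe of Ccr6 was detected on no array.

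Members that lie next to each other in the genome could be compared by order in the RefSeq annotation, taking members at most 6 protein-coding genes apart as a run. On chromosome 11, the run from Ccl2 to Ccl1 held 4 members, all tested and all higher, beside 13.5% of all genes tested. Of these members, Ccl2 and Ccl1 were detected on no wildtype array. The run from Ccl5 to Ccl4 on the same chromosome held 5 members, of which 3 rose; Ccl5 and Ccl9 did not pass. On chromosome 5, both members of the run of Cxcl9 and Cxcl10 rose, and the run from Pf4 to Cxcl2 had 2 of its 5 members tested, both higher. A run on chromosome 5 with Ccl26 and Ccl24 had 1 member tested, which was higher. Both members of the run of Ccl19 and Ccl21a on chromosome 4 were tested and higher. Not every run is listed here. On chromosome 8, the run from Ccl22 to Ccl17 had 2 of 3 members tested and 1 higher, and on chromosome 9 the run of Cx3cr1 and Ccr8 had 1 tested and 0 higher.

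Genes that act around the chemokines were read from lists named for regulators, other chemokine-binding proteins and signalling proteins. Of 17 tested genes listed as regulators of chemokine transcription, 10 rose and none fell, with a median difference of 0.38. They are not all inducers: the interferon receptor genes Ifngr1, Ifngr2 and Ifnar2 are listed too. So is Nfkbia, which encodes an inhibitor of NF-kappaB and is among the 10 (difference 0.36, adjusted p = 0.0379). The called share of this list was 58.8%, beside 30.7% of all genes tested in either direction. With the slide as a block, Nfkb2 (difference 0.38, adjusted p = 0.0341, against 0.0929 without the block) was also called higher and Irf3 (difference -0.19, adjusted p = 0.0441, against 0.0503) lower. Irf7, an interferon regulatory factor, rose by 1.67 (SE 0.23, adjusted p = 6.95e-05), and Stat2, a transducer of interferon signals, by 1.19 (SE 0.14, adjusted p = 1.48e-05), each without overlap between groups. Tnf, which induces inflammatory chemokines through NF-kappaB, rose by 0.96 (SE 0.19, adjusted p = 0.00136) and was detected on 5 wildtype and 8 knockout arrays.

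Of 6 tested genes listed as other chemokine-binding proteins, 3 rose and none fell, beside 13.5% and 17.2% of all genes tested. They are not all decoy receptors: Rarres2 and Dpp4, neither of them called, are listed too. Ackr1, listed on the array as Darc, binds chemokines on venules without signalling, and rose by 1.26 (SE 0.18, adjusted p = 0.000103). Ccrl2 rose by 0.63 (SE 0.14, adjusted p = 0.00215) and Ackr2, a scavenger of inflammatory chemokines, by 0.53 (SE 0.19, adjusted p = 0.039). Of 23 tested genes of receptor signalling, 8 rose and 1 fell, with a median difference of 0.20. The called share was 39.1%, near the 30.7% of all genes tested. Plcb2 (difference 0.43) was called higher too with the slide as a block (adjusted p = 0.049, against 0.0631). Rac2, a GTPase of migrating blood cells, rose by 0.76 (SE 0.14, adjusted p = 0.000751), Ptk2b by 0.64 (SE 0.13, adjusted p = 0.00119) and Was by 0.62 (SE 0.14, adjusted p = 0.0035). Plcb3, a phospholipase coupled to G proteins, fell by 0.69 (SE 0.11, adjusted p = 0.000193), with every knockout array below every wildtype array.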

How the data were processed

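RNA was converted to biotin-labelled cRNA, as the labels' protocols state, and read on Illumina bead arrays. The authors deposited non-normalised mean bead intensity values and detection p-values for each probe and array, per the file headers; the sources used here do not name the scanner software. A second deposited table of intensity values, on a linear scale with array medians of 158.5 to 159, ranks probes as the first does and served as an alternative. Neither file names a genome build.

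Intensities were corrected by normexp using the detection p-values (offset 16), quantile normalised and converted to log2 in limma 3.58.1 (R 4.3.3). Probes detected (p under 0.05) on at least 6 of 16 arrays were kept. The brightest probe of each gene was tested by genotype (lmFit, eBayes), with Benjamini-Hochberg adjustment over all genes. Symbols were updated through RefSeq: 20733 probes carried a current symbol, 3903 matched a synonym and 1061 kept the array's name. A group with no detected array gives a bound, set by the lowest signal among detected probes of each array. The scripts were tested on simulated data. The number of arrays, 8 per genotype, limits the precision.

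Members, lists and roles were chosen with earlier results of these data known. The text names Hnf4a, every member past the threshold, and up to 4 called genes of each pathway list with the largest change; members not called or not detected are given by name, range or count. The 2 slides held 4 arrays of each genotype. Alternatives covered scaling, background, filter, probe choice, slide and each array left out. The test between slides and the fit without knockout mice 1 and 6 were added after seeing the data. Promoters (250 bases before the start) came from RefSeq, and motif matches were found in Python 3.11.15. The letters of the interferon and NF-kappaB motifs were shortened after a first search had been seen. Some genes that these rules take are not reported here, though they enter the counts.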

Additional observations from a re-analysis of the deposited data

Results flagged for a closer look

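Each of the 31 tested members, and Hnf4a, was searched in each genotype for an array far from the other 7 by Dixon's test. The test picked 5 of 64 sets of 8 arrays, where chance alone gives about 3.2. For Ccl28, knockout mouse 8 had a log2 level of 5.57, with the next at 5.29; no knockout array detected this probe. For Cxcl1, wildtype mouse 2 was lowest at 5.95, with the next at 7.27. For Ccl1, wildtype mouse 3 was highest at 5.38, above 5.07, and no wildtype array detected it. For Ccl9, wildtype mouse 5 was lowest at 10.71, below 11.49. For Cxcl12, knockout mouse 1 was highest at 10.96, above 10.48.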

How the results depend on the processing

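Cxcl10, Cxcl9, Cxcl1, Ccl2, Ccl3, Ccl4, Ccl6, Xcl1 and Ccl28 kept their direction and call in all 31 alternatives, and Ccl1 in the 30 in which it was tested. The count of members higher was 21, between 20 and 22 with any 1 array left out, 17 under median scaling, 13 on slide 1 alone and 14 on slide 2 alone; that of all genes called was 3115, from 2644 to 3368 with 1 array left out, 758 on slide 1 and 1335 on slide 2. Fewer arrays enter the fits of 1 slide. Members called lower, and epithelial homing ligands called lower, were 2 in place of 1 when each probe was tested on its own or the probes of a gene were averaged, which adds Ccl25. Epithelial homing ligands called higher were 1 under median scaling and 0 on slide 1 alone, receptors higher were 0 on slide 1 alone, and lymphoid and stromal ligands higher were 0 on slide 2 alone and 4 to 5 with 1 array left out. Cxcl4 was called in none (0) of the settings median scaling, no detection filter, slide 1 alone and slide 2 alone, and in 0 or 1 with an array left out. Ccl7, Ccl17, Ccl24 and Cxcl14 lost their call on 1 slide only, Ccl11 in 5 settings and Cxcl12 in 3. Cxcl13, not called, turned to -0.15 on slide 2 alone. The causes were not tested.

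No label says that equal replicate numbers mark shared litters. Correlations of same-numbered mice ran from -0.233 to 0.387, with 6 of 8 pairs over 0.1. Of the mice, 2 correlated best with their own number. These values do not settle whether the numbers pair the samples, and the main fit treats them as unpaired. A replicate block gave 3460 genes and left the members at 21 higher and 1 lower. Without knockout mice 1 and 6 the members stood at the same counts, with 3156 genes called in all. The 26 member probes that missed the detection filter were not tested for a difference. Of these, 22 were detected on no array and 4 on 1 to 5 arrays. A probe below detection does not show that its transcript is absent.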
